A study of Mus musculus with 12 samples.

Results

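The comparison set 3 ear skin libraries labelled K5-Cre;VDR f/f _Oxarol (VDRcKO_Oxarol here) against 3 labelled wild-type_PBS (WT_PBS), 6 of the 12 RNA sequencing libraries of the series. VDRcKO_Oxarol libraries came from ears of K5-Cre;VDR f/f mice that received 100 mg of Oxarol ointment, which carries 2.5 µg of maxacalcitol, an active vitamin D3 analogue. WT_PBS libraries came from ears of wild type C57BL/6J mice that received phosphate-buffered saline. Both groups were sampled 1 day after application, and all mice were 8 to 12 weeks old. Of the other wild type groups, WT_Oxarol received the same ointment and WT_untreated received nothing. In K5-Cre;VDR f/f mice the keratin 5 promoter drives Cre recombinase, which cuts the floxed part of the vitamin D receptor gene in keratin 5 positive epithelium; other skin cells keep the receptor. Genotype and treatment both differed between VDRcKO_Oxarol and WT_PBS, saline is not the ointment base, and no saline-treated K5-Cre;VDR f/f ear was analysed here, so an effect of the ointment and an effect of the genotype cannot be told apart from this comparison alone. Genes were kept where at least 3 of the 12 libraries reached 1 FPKM (a fragment count divided by transcript length in kilobases and by library size), which left 14059 of 23234 gene symbols.

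The vitamin D receptor (Vdr) is a nuclear receptor that binds the active hormone, pairs with a retinoid X receptor and occupies direct repeats of a hexamer known as DR3 elements. Its best known target is Cyp24a1, the hydroxylase that degrades the hormone. In skin, keratinocytes hold most of the receptor, where it takes part in differentiation and, together with the corepressor Hairless (Hr), in the hair cycle, while dermal, immune and endothelial cells carry lower amounts. The comparison addresses which ointment-associated changes appear in mice bred to lack the receptor in keratin 5 positive cells.

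The libraries also differed in depth and in library code, in part along the groups compared. From the value that 1 fragment takes, the VDRcKO_Oxarol libraries held about 4550000 to 6650000 fragments and the WT_PBS libraries 12740000 to 113900000, with a factor of 2 possible for any library. The library codes fall in 2 series, and all 3 VDRcKO_Oxarol libraries and 1 library of each wild type group (replicate 3) belong to the second. Of the skin markers, Krt5 stood at 482, 519 and 456 FPKM in VDRcKO_Oxarol and 628, 708 and 557 FPKM in WT_PBS, and Krt14 at 1249, 1406 and 1197 FPKM against 1394, 1799 and 1167 FPKM. Cartilage (Acan), striated muscle (Acta1), fat (Adipoq) and macrophage (Emr1) markers were present in every library, as whole ear tissue holds. In such tissue, fewer cells of a type and less RNA per cell cannot be told apart. Xist was detected in all 12 libraries and the Y-linked genes were near 0 in all. Nnt, a mitochondrial gene that is partly deleted in C57BL/6J, had 9.92, 5.81 and 9.51 FPKM in VDRcKO_Oxarol and 4.46, 3.37 and 4.35 FPKM in WT_PBS (0.87 ± 0.21 on the log2 scale, adjusted p = 0.0225); the call was lost with the code series as a term (adjusted p = 0.106). The labels give the strain of the VDRcKO_Oxarol mice as their genotype, and the part of strain in the results was not tested.

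Values were compared with limma on log2(FPKM + 1), and a difference below is VDRcKO_Oxarol minus WT_PBS on that scale, with its moderated standard error, unless another pair is named. In VDRcKO_Oxarol, 2286 of the 14059 genes (16.3%) differed from WT_PBS at an adjusted p below 0.05, 1514 higher (10.8%) and 772 lower (5.49%). The groups of 3 did not overlap for 47.4% of all genes tested. A difference of at least 1 on the log2(FPKM + 1) scale was reached by 265 of the higher and 35 of the lower genes. The balance of directions moved with the scaling: 66.2% of the calls were higher with FPKM as deposited, 43.0% (1037 higher, 1373 lower) after median-of-ratios scaling, and 37.4% (968 higher, 1620 lower) after quantile normalization. The median difference over all genes was 0.086 as deposited and 0.00013 after median-of-ratios scaling and -0.039 after quantile normalization. Of the 2286 genes, 1809 were called in the same direction after median-of-ratios scaling and 1709 after quantile normalization. The number of calls depended on single libraries: it was 543 without WT_PBS replicate 1, 646 without WT_PBS replicate 2, 889, 959 and 1229 without VDRcKO_Oxarol replicates 1, 2 and 3, and 3875 without WT_untreated replicate 1, which enters the shared spread alone. With the library code series as a term, 611 genes were called, of which 588 were among the 2286. All 2286 differences had the same sign against WT_PBS replicate 3, the WT_PBS library of the second code series, and for 2271 of them (99.3%) all 3 VDRcKO_Oxarol libraries lay beyond that library, which is itself one of those that made the calls.

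Vdr was higher, not lower, in the libraries labelled VDRcKO_Oxarol. Its values were 23.6, 25 and 18 FPKM in VDRcKO_Oxarol and 9.28, 10.1 and 9.43 FPKM in WT_PBS, with no overlap, a difference of 1.11 ± 0.21 (moderated standard error, log2 scale, adjusted p = 0.00883). A gene-level value sums the whole gene, so it does not check a deletion of part of it. Cyp24a1 had 0, 0.271 and 0.175 FPKM in VDRcKO_Oxarol and 0.0296, 0.0230 and 0.0130 FPKM in WT_PBS, while WT_Oxarol had 66.2, 599 and 458 FPKM. The difference from WT_PBS was 0.16 with a 95% interval of -1.22 to 1.54 (adjusted p = 0.876), and that from WT_Oxarol was -7.85 ± 0.62 (adjusted p = 0.000689). Among the other receptor partners, the corepressor Hr had 25.5, 27.8 and 23 FPKM in VDRcKO_Oxarol and 12, 11.1 and 9.59 FPKM in WT_PBS (1.16 ± 0.18, adjusted p = 0.00463). Rxrb, a retinoid X receptor, averaged 7.0 ± 1.91 FPKM in VDRcKO_Oxarol and 3.42 ± 0.393 FPKM in WT_PBS (SD, n = 3 each), and also rose. Cyp27a1, a vitamin D 25-hydroxylase, rose by 0.61. The coactivator gene Ncoa1 fell by 0.59, and Med1, a subunit of the mediator complex, fell by 0.41. The calls of Rxrb and Cyp27a1 were lost with the code series as a term (adjusted p = 0.0952 and 0.13), and within the second code series alone, with a single WT_PBS library, Vdr differed by 1.14 (adjusted p = 0.151). Leaving out single libraries, WT_PBS replicate 1 in each case and others for some genes, ended the calls of Rxrb, Cyp27a1 and Med1, at adjusted p of up to 0.0788, 0.122 and 0.0513. Of the 14 members of this list that were tested, 4 rose and 2 fell (10.8% and 5.49% of all genes), with a median of 0.21.

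Several genes stood near the WT_PBS level in VDRcKO_Oxarol and apart from it in WT_Oxarol, with Cyp24a1 first among them. The rule took the 10 genes that differed most between VDRcKO_Oxarol and WT_Oxarol while lying within 0.25 of WT_PBS. Their closeness to WT_PBS and their distance from WT_Oxarol are how they were chosen, and neither is a result. Slc39a4, an intestinal and epidermal zinc importer, had 0.393, 0.664 and 0.671 FPKM in VDRcKO_Oxarol, 12.9, 87.8 and 71.2 in WT_Oxarol and 0.589, 0.317 and 0.436 in WT_PBS. Pla2g4f, a cytosolic phospholipase A2, had 20.8, 30.3 and 24.6 FPKM in VDRcKO_Oxarol, 71.6, 78.3 and 70.3 in WT_Oxarol and 25.4, 29.8 and 17.3 in WT_PBS, with an interval for VDRcKO_Oxarol minus WT_PBS of -0.34 to 0.50. The channel-activating protease gene Prss27 had 11.5, 13.7 and 12 FPKM in VDRcKO_Oxarol, 28.7, 50.9 and 49.2 in WT_Oxarol and 12, 19.8 and 6.05 in WT_PBS, with an interval of -0.82 to 1.04 against WT_PBS. Defb14, the antimicrobial beta-defensin 14, had 43, 50.7 and 56.8 FPKM in VDRcKO_Oxarol, 106, 200.4 and 115 in WT_Oxarol and 49, 54.6 and 44.8 in WT_PBS, with an interval of -0.57 to 0.60. Ocm, a calcium-binding parvalbumin, stayed at or below 0.315 FPKM in VDRcKO_Oxarol, reached 1.86, 2.06 and 3.02 FPKM in WT_Oxarol, and was at or below 0.401 FPKM in WT_PBS. For each of Slc39a4, Pla2g4f, Prss27, Defb14 and Ocm, all 3 WT_Oxarol libraries lay above all VDRcKO_Oxarol and WT_PBS libraries, a separation that the rule favours. Rpp25, a subunit of RNase P, averaged 1.71 ± 0.382 FPKM in VDRcKO_Oxarol, 10.4 ± 7.37 in WT_Oxarol and 2.23 ± 0.988 in WT_PBS (SD, n = 3 each). Hist2h2aa2 and Mir223 completed the genes that were higher in WT_Oxarol; the first has a near-identical copy, and the second is a short RNA gene listed at 0 in all VDRcKO_Oxarol and WT_PBS libraries. Fcgbp, which encodes a mucin-like protein that binds IgG Fc, was the single gene of the 10 that was lower in WT_Oxarol, with 27, 27.4 and 26.4 FPKM in VDRcKO_Oxarol, 18.6, 6.26 and 11.3 in WT_Oxarol and 30.2, 27.4 and 23.8 in WT_PBS. With the series term the calls against WT_Oxarol of Rpp25, Prss27, Fcgbp and Defb14 were lost (adjusted p = 0.174, 0.14, 0.126 and 0.0564). Those of Rpp25, Prss27 and Fcgbp were also lost without WT_Oxarol replicate 2 or 3 or any single VDRcKO_Oxarol library, at adjusted p of up to 0.142, 0.102 and 0.106; Rpp25 and Fcgbp lost theirs without WT_PBS replicate 1 or 2 too, and Rpp25 without WT_PBS replicate 3 or WT_untreated replicate 2. The calls of the other 6 genes remained in all of these fits.

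**Figure D1:**
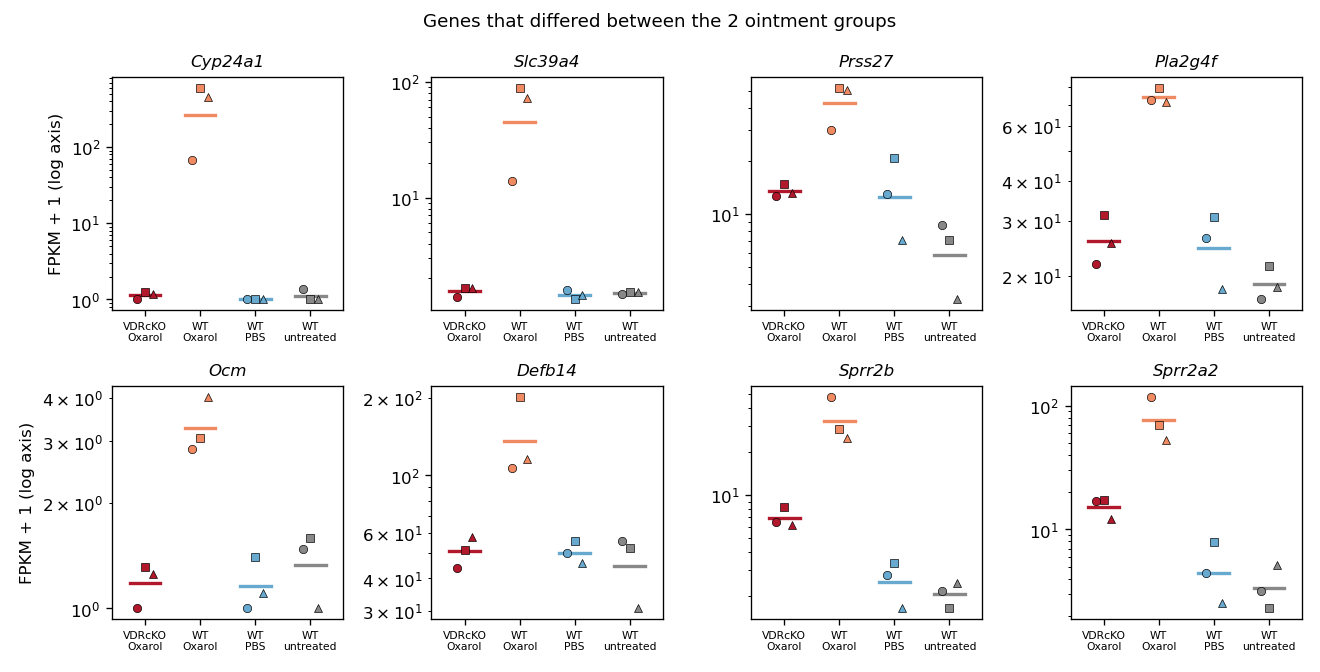
Level of 8 genes in each library, as FPKM + 1 on a log axis, with the group order VDRcKO_Oxarol, WT_Oxarol, WT_PBS and WT_untreated; points are libraries (circle, square and triangle for replicates 1, 2 and 3) and bars are geometric means of FPKM + 1. Cyp24a1, Slc39a4, Prss27, Pla2g4f, Ocm and Defb14 are high in WT_Oxarol alone, while Sprr2b and Sprr2a2 in VDRcKO_Oxarol lie between WT_Oxarol and WT_PBS.

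Other genes had means between those of WT_Oxarol and WT_PBS. Sprr2b and Sprr2a2 differed from both groups, while Klk13, Klk6, Klk12 and Tslp were not called against WT_PBS. Sprr2b, a small proline-rich precursor of the cornified envelope, had 5.47, 7.21 and 5.19 FPKM in VDRcKO_Oxarol, 47, 27.9 and 23.7 in WT_Oxarol and 1.79, 2.39 and 0.656 in WT_PBS. The 3 groups did not overlap, and both differences passed the test, at 1.46 ± 0.30 against WT_PBS (adjusted p = 0.0131) and -2.23 ± 0.30 against WT_Oxarol (adjusted p = 0.00507). Sprr2a2 had 16.1, 16.2 and 11.1 FPKM in VDRcKO_Oxarol, 117, 69.2 and 52.1 in WT_Oxarol and 3.43, 6.98 and 1.53 in WT_PBS, with 1.77 ± 0.43 against WT_PBS and -2.32 ± 0.43 against WT_Oxarol. Sprr2 genes are near-identical, so reads may be split between them. The call of Sprr2a2 against WT_PBS was lost with the code series as a term (adjusted p = 0.0552) and without WT_PBS replicate 3 (adjusted p = 0.0584). Of the kallikreins, the serine proteases of desquamation, Klk13 had 10.5, 15.4 and 14.7 FPKM in VDRcKO_Oxarol, 46.7, 109 and 86.8 in WT_Oxarol and 4.14, 11.5 and 3.17 in WT_PBS; it differed from WT_Oxarol by -2.43 ± 0.41 (adjusted p = 0.00957) and its difference from WT_PBS, 1.16 ± 0.41, did not pass (adjusted p = 0.0785). Klk6 gave the same calls, with 1.05 ± 0.35 against WT_PBS (adjusted p = 0.0645) and -1.80 ± 0.35 against WT_Oxarol (adjusted p = 0.0152). Klk12 averaged 1.64 ± 0.380 FPKM in VDRcKO_Oxarol, 30.3 ± 20.3 in WT_Oxarol and 1.07 ± 0.346 in WT_PBS (SD, n = 3 each). It differed from WT_PBS by 0.35 (limma, adjusted p = 0.619) and from WT_Oxarol by -3.28 (limma, adjusted p = 0.00559). Of 10 kallikreins tested, Klk10 alone rose against WT_PBS, a share near the 10.8% of all genes that rose. Klk10 had 142, 133 and 113 FPKM in VDRcKO_Oxarol and 60.2, 56.4 and 64.2 FPKM in WT_PBS (1.08 ± 0.30, adjusted p = 0.0367). That call too was lost with the series term (adjusted p = 0.102) and without WT_PBS replicate 3 (adjusted p = 0.0631). The calls of Sprr2a2 and Klk10 were lost when single libraries were left out, WT_PBS replicate 1 in each case and others for some genes, at adjusted p of up to 0.0766 and 0.113. Tslp, the epithelial cytokine that vitamin D analogues are known to induce in mouse skin, had 4.90, 7.38 and 6.98 FPKM in VDRcKO_Oxarol, 9.65, 19.3 and 24.3 in WT_Oxarol and 4.87, 3.59 and 5.62 in WT_PBS. It differed from WT_Oxarol (-1.26 ± 0.28, adjusted p = 0.0212), and its interval against WT_PBS was -0.24 to 1.0 (adjusted p = 0.359). The Tslp call against WT_Oxarol was lost without WT_Oxarol replicate 2 or 3 or VDRcKO_Oxarol replicate 1 or 2 (adjusted p up to 0.0764). Those of Klk6 and Klk13 against WT_Oxarol were lost with the series term (adjusted p = 0.0686 and 0.0509), and that of Klk6 without WT_Oxarol replicate 2 (adjusted p = 0.0584). Against WT_Oxarol, Sprr2a2 was not called with the series term (adjusted p = 0.0648).

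A further group of genes differed the same way in VDRcKO_Oxarol against WT_PBS and in WT_Oxarol against WT_untreated. Krt1, Stfa3, Psors1c2, Ptges and Hif1a were among those higher, and Wfdc3, Clca3 and Krt15 among those lower. Against WT_PBS, limma called WT_Oxarol at Krt1 and Clca3 (adjusted p = 0.00669 each). It did not call Stfa3, Psors1c2, Ptges, Hif1a, Wfdc3 and Krt15 there (adjusted p = 0.0859, 0.0612, 0.0859, 0.0859, 0.0909 and 0.103). VDRcKO_Oxarol against WT_PBS and WT_Oxarol against WT_untreated have no library in common, so their calls were counted together. They are not independent, because both came from 1 fit with a common estimate of each gene's spread, which gives a gene the same standard error in both. WT_Oxarol differed from WT_untreated at 184 genes (1.31% of those tested), and 48 genes were called in both comparisons. Of these, 45 had the same direction, 33 higher and 12 lower. That is 1.97% of the 2286 genes called in VDRcKO_Oxarol against WT_PBS and 24.5% of the 184. By direction, the 33 were among 139 genes called higher in WT_Oxarol than in WT_untreated, and the 12 among 45 called lower. Among all genes tested, 10.8% were called higher and 5.49% lower in VDRcKO_Oxarol against WT_PBS, and 16.3% in either direction. For 39 of the 45 genes with the same direction, the difference between VDRcKO_Oxarol and WT_Oxarol was not called, which does not show equal levels. Of all genes, 13.1% were called between these groups. With the code series as a term, 27 of the 45 were still called in both, and 34 under median-of-ratios scaling. The count of 45 was 4 when each comparison was fitted with only its own 2 groups, and ranged between 11 without WT_Oxarol replicate 2 and 80 without WT_Oxarol replicate 1; it moved by over 1.5 times without any single library other than WT_untreated replicate 2. Of the 139 genes called higher in WT_Oxarol than in WT_untreated (0.989%), 105 had a positive difference in VDRcKO_Oxarol against WT_PBS, set against 60.3% of all genes. Their median was 0.30 in VDRcKO_Oxarol against WT_PBS and 0.97 in WT_Oxarol against WT_untreated, the comparison that chose them. No group with the ointment base alone was analysed here, and WT_PBS differed from WT_untreated at 1 gene by limma (0.00711% of those tested).

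**Figure D2:**
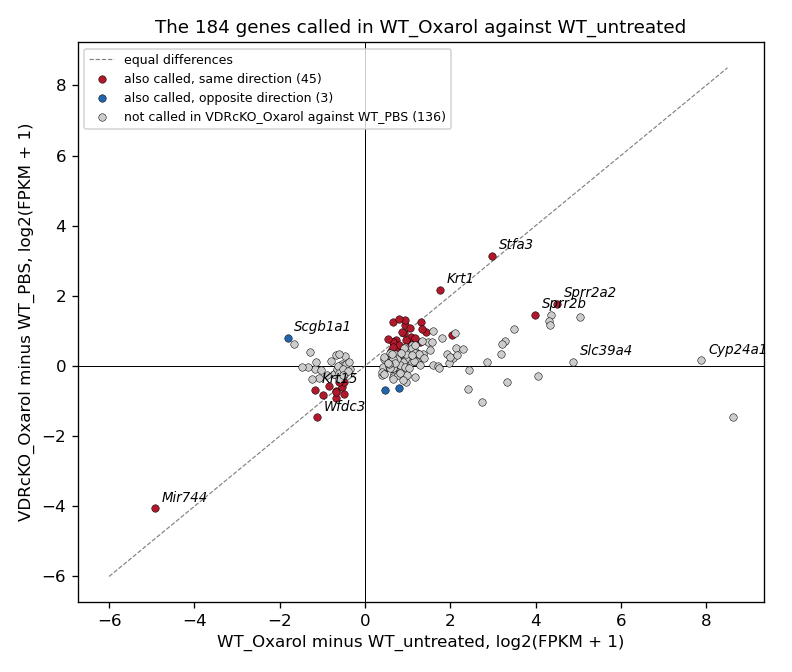
Differences on the log2(FPKM + 1) scale for the 184 genes called in WT_Oxarol against WT_untreated (horizontal axis) and the same genes in VDRcKO_Oxarol against WT_PBS (vertical axis), 2 comparisons with no library in common. Red points (45) were called in both with the same direction, blue points (3) with opposite directions, and the 136 grey points, Cyp24a1 and Slc39a4 among them, were not called in VDRcKO_Oxarol against WT_PBS.

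Krt1, the keratin of suprabasal epidermis, was the shared increase with the highest FPKM. It had 488, 620.4 and 618 FPKM in VDRcKO_Oxarol and 137, 148 and 99.2 FPKM in WT_PBS, beside 344, 502 and 415 FPKM in WT_Oxarol and 109.8, 106 and 159 FPKM in WT_untreated. Both ointment groups lay above both others without overlap; the differences were 2.17 ± 0.21 (adjusted p = 0.000788) and 1.75 ± 0.21 (adjusted p = 0.00432), and that between the ointment groups was 0.46 with an interval of 0.0063 to 0.92. Krt10, its usual partner in the suprabasal filament, had 3105, 3881 and 3630.1 FPKM in VDRcKO_Oxarol and 3481, 4743 and 2775 FPKM in WT_PBS, with an interval of -0.51 to 0.46. Krt15, a keratin of basal and bulge cells, was lower, with 1218, 1114 and 1122 FPKM in VDRcKO_Oxarol and 2109.7, 1672 and 1780.3 FPKM in WT_PBS (-0.68 ± 0.18, adjusted p = 0.0287), beside 1354, 814 and 984 FPKM in WT_Oxarol and 2482, 2448 and 2092 FPKM in WT_untreated. That call was lost with the series term (adjusted p = 0.125), without WT_PBS replicate 3 (adjusted p = 0.0503) and without any other single WT_PBS or VDRcKO_Oxarol library (adjusted p up to 0.108). Stfa3, a stefin that inhibits cathepsins, had 56.9, 32 and 31.7 FPKM in VDRcKO_Oxarol and 4.16, 5.10 and 1.87 FPKM in WT_PBS (3.15 ± 0.41, adjusted p = 0.00259), beside 20.6, 21.7 and 12.4 FPKM in WT_Oxarol and 2.75, 0.300 and 1.70 FPKM in WT_untreated. It was higher in every ointment library than in every other library. Its neighbours in the stefin cluster are near-identical and did not pass: Stfa1 had 90.1, 48.9 and 59.1 FPKM in VDRcKO_Oxarol and 30.4, 39.4 and 10.6 FPKM in WT_PBS (1.41 ± 0.59, adjusted p = 0.12).

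Psors1c2, a gene of the psoriasis susceptibility locus expressed in cornifying epidermis, had 61.4, 55.3 and 44.5 FPKM in VDRcKO_Oxarol and 19, 28.9 and 29 FPKM in WT_PBS (1.05 ± 0.17), and WT_Oxarol exceeded WT_untreated by 1.34 ± 0.17. Ptges, which makes prostaglandin E2, had 23.5, 23.9 and 22.2 FPKM in VDRcKO_Oxarol and 14.5, 14.4 and 10.4 FPKM in WT_PBS (0.79 ± 0.14); the wild type difference was 1.18 ± 0.14. Hif1a, the oxygen-regulated transcription factor, had 33.6, 34.4 and 34.2 FPKM in VDRcKO_Oxarol and 22.2, 21.8 and 18.9 FPKM in WT_PBS (0.68 ± 0.10), with 0.65 ± 0.10 in the wild type comparison. For these 3 genes the VDRcKO_Oxarol libraries lay above the WT_PBS libraries with no overlap. Il1rl1, the receptor for interleukin 33, rose by 0.97 to 5.21 ± 1.53 FPKM in VDRcKO_Oxarol, against 2.11 ± 0.238 FPKM in WT_PBS (SD, n = 3 each), a call that was lost with the series term (adjusted p = 0.0716). Agpat1, an acyltransferase of phospholipid synthesis, rose by 0.83, and the poly(A)-binding protein gene Pabpc1 by 0.40. Rptn, a cornified envelope scaffold protein, had 5.24, 5.66 and 5.81 FPKM in VDRcKO_Oxarol and 1.60, 1.73 and 1.94 FPKM in WT_PBS (1.25 ± 0.10, adjusted p = 0.000367); it was higher in VDRcKO_Oxarol than in WT_Oxarol as well, by 0.53 (adjusted p = 0.0148). Sfrp1, a secreted Wnt antagonist, rose by 1.32, the heparanase gene Hpse by 0.96, and the phosphate transporter gene Slc34a2 by 0.77. Hr, given above, was also among them. Chi3l1, a chitinase-like gene, rose by 0.89, which was not called without WT_PBS replicate 3 (adjusted p = 0.0748). For Il1rl1, Chi3l1 and Ptges, WT_PBS itself lay above WT_untreated without overlap, by 0.79, 0.84 and 0.47 (limma, adjusted p = 0.43 each). For Hpse it lay below without overlap, by -0.21 (limma, adjusted p = 0.66). WT_Oxarol against WT_PBS was not called for Il1rl1 or Chi3l1 (limma, adjusted p = 0.383 and 0.0789), nor for Ptges, as given above. Leaving out single libraries, WT_PBS replicate 1 in each case and others for some genes, ended the calls of Il1rl1, Pabpc1 and Chi3l1, at adjusted p of up to 0.0635, 0.0645 and 0.0903.

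Among the shared decreases, Wfdc3, a whey acidic protein-type protease inhibitor, had 1.93, 1.90 and 3.08 FPKM in VDRcKO_Oxarol and 8.02, 7.96 and 8.06 FPKM in WT_PBS (-1.47 ± 0.14, adjusted p = 0.000788), beside 4.80, 4.35 and 4.61 FPKM in WT_Oxarol and 13, 10.8 and 9.81 FPKM in WT_untreated. It was lower in VDRcKO_Oxarol than in WT_Oxarol, by -0.78 ± 0.14 (adjusted p = 0.0122). WT_PBS itself lay below WT_untreated at Wfdc3 without overlap, by -0.43 (limma, adjusted p = 0.457). Clca3, a calcium-activated chloride channel regulator, had 1.53, 2.09 and 2.09 FPKM in VDRcKO_Oxarol and 3.36, 3.94 and 3.81 FPKM in WT_PBS (-0.70 ± 0.10). At Clca3, WT_PBS lay above WT_untreated without overlap, by 0.20 (limma, adjusted p = 0.577). Wnt10b, a canonical Wnt ligand of hair follicles, had 0.393, 0.498 and 0.402 FPKM in VDRcKO_Oxarol and 1.43, 1.48 and 1.21 FPKM in WT_PBS (-0.73 ± 0.13, adjusted p = 0.00785). Mir744 was listed at 0 in all 6 ointment libraries and had 19.2, 29.3 and 6.59 FPKM in WT_PBS; it is a short RNA gene, for which FPKM is unreliable. Of the 45 genes, 6 also differed between the ointment groups. Rptn, Wfdc3 and Slc37a2 lay further from WT_PBS in VDRcKO_Oxarol than in WT_Oxarol, and Sprr2b, Sprr2a2 and Gna15 lay closer to it. With the series term the call between the ointment groups remained for Sprr2b (adjusted p = 0.0293) and was lost for the other genes (adjusted p = 0.0538 for Rptn, 0.0576 for Wfdc3, 0.117 for Slc37a2, 0.0648 for Sprr2a2 and 0.0941 for Gna15). Leaving out single libraries, among them VDRcKO_Oxarol replicate 2, also ended it for Rptn, Slc37a2 and Gna15, at adjusted p of up to 0.0552, 0.12 and 0.0676. The call of Gna15 against WT_PBS was lost with the series term (adjusted p = 0.102) and without any single WT_PBS or VDRcKO_Oxarol library or WT_Oxarol replicate 2 (adjusted p up to 0.139).

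**Figure D3:**
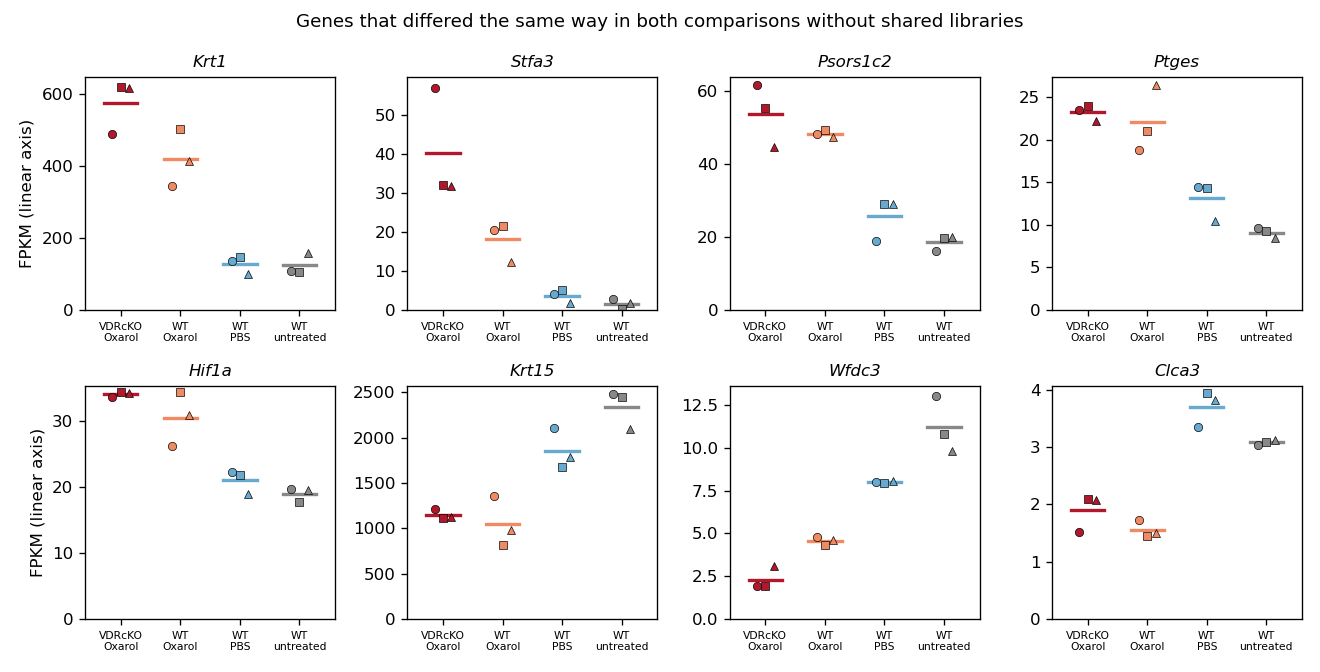
FPKM of 8 genes in each library on linear axes from 0, for VDRcKO_Oxarol, WT_Oxarol, WT_PBS and WT_untreated; points are libraries (circle, square and triangle for replicates 1, 2 and 3) and bars are group means. Krt1, Stfa3, Psors1c2, Ptges and Hif1a are higher, and Krt15, Wfdc3 and Clca3 lower, in the 3 VDRcKO_Oxarol libraries than in the 3 WT_PBS libraries.

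Promoters of 4 of the 45 genes called the same way in both comparisons are printed. They do not stand for the other genes, as each of the 4 holds a marked motif. Each window runs from 250 bases before to 50 bases after the transcription start in RefSeq, build GRCm38.p6, 5′ to 3′ on the gene's strand. Capitals mark a TATA box (TATAAA), the AP-1 motif TGAGTCA and the nuclear receptor half-site AGGTCA, searched on both strands. The motifs do not overlap here, and the TGAGTCA of Stfa3 lies after the transcription start.
Rptn (chr3:93393449-93393748, plus strand): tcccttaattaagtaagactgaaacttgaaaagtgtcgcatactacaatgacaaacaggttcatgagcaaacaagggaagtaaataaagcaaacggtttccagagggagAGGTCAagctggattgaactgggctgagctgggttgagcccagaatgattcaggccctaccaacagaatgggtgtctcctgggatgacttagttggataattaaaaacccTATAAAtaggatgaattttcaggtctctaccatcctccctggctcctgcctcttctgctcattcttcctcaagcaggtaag
Sprr2b (chr3:92316455-92316754, plus strand): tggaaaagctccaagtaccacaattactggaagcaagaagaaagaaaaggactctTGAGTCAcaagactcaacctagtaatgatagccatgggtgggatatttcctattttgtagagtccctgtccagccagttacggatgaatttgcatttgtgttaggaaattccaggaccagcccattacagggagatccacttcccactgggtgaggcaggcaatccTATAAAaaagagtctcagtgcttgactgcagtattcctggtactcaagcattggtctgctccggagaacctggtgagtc
Stfa3 (chr16:36455343-36455642, minus strand): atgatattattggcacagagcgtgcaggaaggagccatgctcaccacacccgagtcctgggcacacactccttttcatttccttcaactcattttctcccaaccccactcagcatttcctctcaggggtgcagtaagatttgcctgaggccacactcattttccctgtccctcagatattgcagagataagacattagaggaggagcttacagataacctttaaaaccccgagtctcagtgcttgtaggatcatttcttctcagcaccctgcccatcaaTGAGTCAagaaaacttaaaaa
Wfdc3 (chr2:164743218-164743517, minus strand): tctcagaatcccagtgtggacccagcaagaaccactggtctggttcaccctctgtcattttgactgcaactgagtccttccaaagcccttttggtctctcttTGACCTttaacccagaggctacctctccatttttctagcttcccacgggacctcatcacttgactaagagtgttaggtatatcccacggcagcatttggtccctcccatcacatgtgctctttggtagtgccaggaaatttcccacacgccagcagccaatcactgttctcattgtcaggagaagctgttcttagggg
RefSeq promoters were found for 31 of the 45 genes. No DR3 element was found in these 31, against 0.292% of all genes with such a window. TGAGTCA was present in 3 (Slc37a2, Sprr2b and Stfa3), against 5.95% of all genes, AGGTCA in 9, against 18.1%, and TATAAA in 4, against 15.7%. A match is a run of letters and not a known site, and no match says only that these letters are not in this window.

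The 3 genes called in opposite directions were Scgb1a1, Cnnm4 and Cwh43. Scgb1a1, a secretoglobin, had 14.2, 13.9 and 14.8 FPKM in VDRcKO_Oxarol, 3.33, 1.43 and 1.87 in WT_Oxarol, 8.81, 6.71 and 7.81 in WT_PBS and 14.2, 7.81 and 8.72 in WT_untreated. It was higher in VDRcKO_Oxarol than in WT_PBS (0.81 ± 0.23, adjusted p = 0.0397) and lower in WT_Oxarol than in WT_untreated (-1.81 ± 0.23), and the ointment groups differed by 2.30 ± 0.23 (adjusted p = 0.00167). Its call against WT_PBS, like that of Cwh43, was lost with the series term (adjusted p = 0.0931 and 0.117), and without WT_PBS replicate 3 it stood at an adjusted p of 0.0755. The calls of Scgb1a1 and Cwh43 were lost when single libraries were left out, WT_PBS replicate 1 in each case and others for some genes, at adjusted p of up to 0.134 and 0.0987. Cnnm4, a magnesium transporter, had 12, 13.1 and 13.7 FPKM in VDRcKO_Oxarol, 25.8, 28.4 and 30.7 in WT_Oxarol and 21.6, 21.1 and 21.2 in WT_PBS; it was lower in VDRcKO_Oxarol than in either. Cwh43, a gene of lipid anchor remodelling, had the same order, with 4.39 ± 0.954 FPKM in VDRcKO_Oxarol, 10.2 ± 0.770 in WT_Oxarol and 7.33 ± 1.63 in WT_PBS (SD, n = 3 each).

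Several genes of keratinocyte differentiation were higher in VDRcKO_Oxarol than in either WT_Oxarol or WT_PBS, among them Casp14, Sprr1a, Sprr4, Cst6 and Krt17. Casp14, the caspase that processes filaggrin in cornifying cells, had 156, 167 and 148 FPKM in VDRcKO_Oxarol and 24.8, 40.7 and 27.7 FPKM in WT_PBS (2.33 ± 0.18, adjusted p = 0.000256), beside 41.6, 40.4 and 30.0 FPKM in WT_Oxarol. The VDRcKO_Oxarol values exceeded all others without overlap. Sprr1a, a cornified envelope precursor, had 740.3, 583 and 407 FPKM in VDRcKO_Oxarol and 157, 182 and 201 FPKM in WT_PBS (1.64 ± 0.23, adjusted p = 0.00292; its call against WT_Oxarol was lost without VDRcKO_Oxarol replicate 2, adjusted p = 0.0507), and Sprr4 had 253, 217 and 150.0 FPKM against 26.3, 24.2 and 35.3 FPKM (2.80 ± 0.46, adjusted p = 0.00605). Of the 11 small proline-rich genes tested, Sprr1a, Sprr4, Sprr2b and Sprr2a2 rose and none fell; the median of the list was -0.22 as deposited, and 0.69 with the series term. Cst6, an inhibitor of cathepsins that act on the cornified envelope, had 445, 398 and 325 FPKM in VDRcKO_Oxarol and 189.6, 195 and 199 FPKM in WT_PBS (0.98 ± 0.19), and the cathepsin L gene Ctsl had 133, 121 and 112 FPKM against 72.5, 80.5 and 78.4 FPKM (0.65 ± 0.13). Asprv1, a protease that processes filaggrin, rose by 0.60. Padi3, a citrullinating enzyme of hair follicle and epidermis, had 15, 6.42 and 2.44 FPKM in VDRcKO_Oxarol and 0.0320, 0.0870 and 2.33 FPKM in WT_PBS (2.26 ± 0.57), and within WT_PBS it was highest in replicate 3. In all, 7 of the 30 cornified envelope genes tested rose and 1, Lypd3, fell by 0.68, with a list median of 0.22 (all genes, 0.086); the calls of Padi3 and Lypd3 were lost with the series term. Leaving out single libraries, WT_PBS replicate 1 in each case and others for some genes, ended the calls of Ctsl, Asprv1, Padi3 and Lypd3, at adjusted p of up to 0.0603, 0.081, 0.102 and 0.0825. Krt17, a keratin of activated epidermis and hair follicle, had 548, 449.9 and 316 FPKM in VDRcKO_Oxarol and 214, 214 and 177 FPKM in WT_PBS (1.08 ± 0.18, adjusted p = 0.00646). Krt6a, Krt6b and Krt16, the other stress keratins, did not pass; Krt6a had 51, 47.2 and 29.3 FPKM in VDRcKO_Oxarol and 50.8, 57.6 and 26.8 FPKM in WT_PBS. Of 23 genes of activated epidermis, 2 rose and 3 fell, where 10.8% and 5.49% of all genes did. None of the 35 cell cycle genes tested was called by limma in either direction, with a median of -0.15, 0.080 with the series term. At an unadjusted p below 0.05, 4 were lower and 0 higher, and 3 genes were called lower at the adjusted threshold after median-of-ratios scaling and 2 after quantile normalization. Mki67 had 3.02, 3.30 and 3.02 FPKM in VDRcKO_Oxarol and 3.59, 4.44 and 3.11 FPKM in WT_PBS.

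The genes that fell most in VDRcKO_Oxarol included Gadl1, Calcb, Guca2a, Lce3c, Serpinb2, Mbnl1 and Sox15. Gadl1, a decarboxylase of acidic amino acids, had 0.901, 1.32 and 1.19 FPKM in VDRcKO_Oxarol and 8.18, 12.1 and 6.95 FPKM in WT_PBS (-2.21 ± 0.24, adjusted p = 0.00112); the groups did not overlap, and WT_Oxarol had 5.22, 3.81 and 5.19 FPKM. Calcb, which encodes the neuropeptide beta-CGRP, had 4.32, 10.3 and 5.72 FPKM in VDRcKO_Oxarol and 22.9, 38.7 and 39.1 FPKM in WT_PBS (-2.19 ± 0.41). Guca2a, the guanylate cyclase activator guanylin, had 12.2, 15 and 16.3 FPKM in VDRcKO_Oxarol and 67.2, 94.4 and 48.4 FPKM in WT_PBS (-2.15 ± 0.38), beside 24.7, 11.5 and 20.4 FPKM in WT_Oxarol. Serpinb2, a plasminogen activator inhibitor, had 67.5, 82.1 and 79.1 FPKM in VDRcKO_Oxarol and 188, 183 and 218 FPKM in WT_PBS (-1.36 ± 0.16, adjusted p = 0.00144); WT_Oxarol had 188, 168 and 138 FPKM. With Serpina12, Serpinb7 and Serpinb8 it made 4 of the 19 protease inhibitors tested that fell, and none rose. Of all genes, 5.49% fell and 10.8% rose. Mbnl1, a splicing regulator, had 98.7, 53.6 and 57.8 FPKM in VDRcKO_Oxarol and 187, 163 and 179.7 FPKM in WT_PBS (-1.37 ± 0.19), and the values of every wild type library lay between 157 and 190.0 FPKM. Sox15, a transcription factor, averaged 8.01 ± 1.11 FPKM in VDRcKO_Oxarol and 21.3 ± 1.78 FPKM in WT_PBS (SD, n = 3 each). Lce3c, a late cornified envelope gene, had 24.3, 45.8 and 33.5 FPKM in VDRcKO_Oxarol and 101, 139 and 69.2 FPKM in WT_PBS (-1.54 ± 0.34), the single call among 18 late cornified envelope genes. Lypd2 had 4.12, 0.580 and 2.81 FPKM in VDRcKO_Oxarol and 6.65, 10.1 and 6.81 FPKM in WT_PBS, and Fabp6, a bile acid carrier gene, had 6.45, 1.82 and 2.20 FPKM against 10.7, 12.3 and 7.33 FPKM. The calls of Lypd2, Fabp6, Serpinb7 and Serpinb8 were lost with the series term, and that of Lypd2 also without WT_PBS replicate 3 (adjusted p = 0.0624). The calls of Lce3c, Serpinb7, Serpinb8, Lypd2 and Fabp6 were lost when single libraries were left out, WT_PBS replicate 1 in each case and others for some genes, at adjusted p of up to 0.0689, 0.0563, 0.0855, 0.129 and 0.0706. Gata3, a transcription factor of the inner root sheath, epidermis and type 2 lymphocytes, had 126, 123 and 123 FPKM in VDRcKO_Oxarol and 286, 277 and 243 FPKM in WT_PBS (-1.11 ± 0.16). Fgfbp1, which releases fibroblast growth factors from matrix, had 133, 126 and 117 FPKM in VDRcKO_Oxarol and 313, 309.8 and 216 FPKM in WT_PBS (-1.13 ± 0.19). Cyp26a1, which degrades retinoic acid, fell by 1.18, whereas Lrat, which stores retinol as esters, had 3.48, 2.48 and 2.03 FPKM in VDRcKO_Oxarol and 0.241, 0.235 and 0.335 FPKM in WT_PBS (1.51 ± 0.21). Gadl1, Serpinb2, Mbnl1, Sox15 and Lrat differed from WT_Oxarol in the same direction as from WT_PBS, whereas for Calcb, Guca2a, Lce3c, Gata3, Fgfbp1 and Cyp26a1 the difference from WT_Oxarol was not called.

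Hair shaft genes and their relatives made up 9 of the 10 largest increases among genes past the threshold whose groups did not overlap, and their levels also varied within WT_PBS. Summed over the hair shaft keratins, VDRcKO_Oxarol libraries held 557, 343 and 172 FPKM and WT_PBS libraries 2.52, 6.98 and 192 FPKM. Replicate 3 of WT_PBS overlapped VDRcKO_Oxarol, and the other 2 WT_PBS libraries lay far below. Among the untreated ears, replicate 3 was high too, at 80.3 FPKM, and it and WT_PBS replicate 3 belong to the same code series as VDRcKO_Oxarol. WT_Oxarol replicate 3, also of that series, was low at 1.66 FPKM, while WT_Oxarol replicate 1, of the first series, held 29.3 FPKM. Of the 12 hair shaft keratins tested, 8 rose and none fell (10.8% and 5.49% of all genes), with a median of 3.0. All 12 were called without WT_PBS replicate 3, and none with the series term or without WT_PBS replicate 1 or 2. Krt81 had 52.8, 29.7 and 14.7 FPKM in VDRcKO_Oxarol and 0.00693, 0.291 and 12 FPKM in WT_PBS (3.53 ± 0.98, adjusted p = 0.036), and within the second series its difference was 1.18. Krt86 is a near-identical copy of Krt81 and had almost the same values. All 47 keratin-associated protein genes tested had positive differences, as did 60.3% of all genes, with a median of 3.20. Of the 47, 19 were called higher, as were 10.8% of all genes. Against WT_PBS replicate 3 alone the median was 0.73, and with the series term 1 gene was called. The 19 calls became 1 without WT_PBS replicate 1, 1 without WT_PBS replicate 2, 2, 2 and 9 without VDRcKO_Oxarol replicates 1, 2 and 3, and 43 without WT_PBS replicate 3; the hair shaft keratins gave 1 and 2 without VDRcKO_Oxarol replicates 1 and 2. Krtap8-1 had 90.2, 72.7 and 22 FPKM in VDRcKO_Oxarol and 0, 0.568 and 19 FPKM in WT_PBS (4.09 ± 1.16, adjusted p = 0.0384). Krtap11-1, Krtap4-8, Krtap4-9 and the related Gm11595 rose by 3.46 to 4.03, and Gprc5d, an orphan receptor of hair follicle keratinocytes, by 3.38. Krtap13-1 was the member called under the series term (adjusted p = 0.0456), with 24.3, 25.1 and 13.1 FPKM in VDRcKO_Oxarol and 0, 0.130 and 5.42 FPKM in WT_PBS. Inner root sheath genes gave similar counts, with 5 of 13 called higher, 1 (Gata3) lower and Krt25 at 124, 61.2 and 28.4 FPKM in VDRcKO_Oxarol and 5.06, 4.57 and 28.2 FPKM in WT_PBS. Krt79, a keratin of the hair canal and sebaceous duct, was even within each group, with 194, 188 and 169 FPKM in VDRcKO_Oxarol and 78.3, 89 and 83.6 FPKM in WT_PBS (1.13 ± 0.13, adjusted p = 0.00123). With each library left out in turn, Krtap13-1, Krt79 and Gata3 kept their calls, whereas Krt81, Krt86, Krt25, Krtap8-1, Krtap11-1, Krtap4-8, Krtap4-9, Gm11595 and Gprc5d lost theirs without WT_PBS replicate 1 and without other single libraries, at adjusted p of up to 0.133 for Krtap8-1 and 0.127 for Krt81. The part of the hair level in other results was not tested. The single largest increase, Gm9846, had 531, 1159 and 1424 FPKM in VDRcKO_Oxarol and 0, 1.87 and 0 FPKM in WT_PBS, but WT_untreated replicate 3 stood at 891 FPKM while the other untreated libraries were listed at 0; its call was lost with the series term (adjusted p = 0.0838) and without WT_PBS replicate 1 or VDRcKO_Oxarol replicate 2 (adjusted p up to 0.0635).

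**Figure D4:**
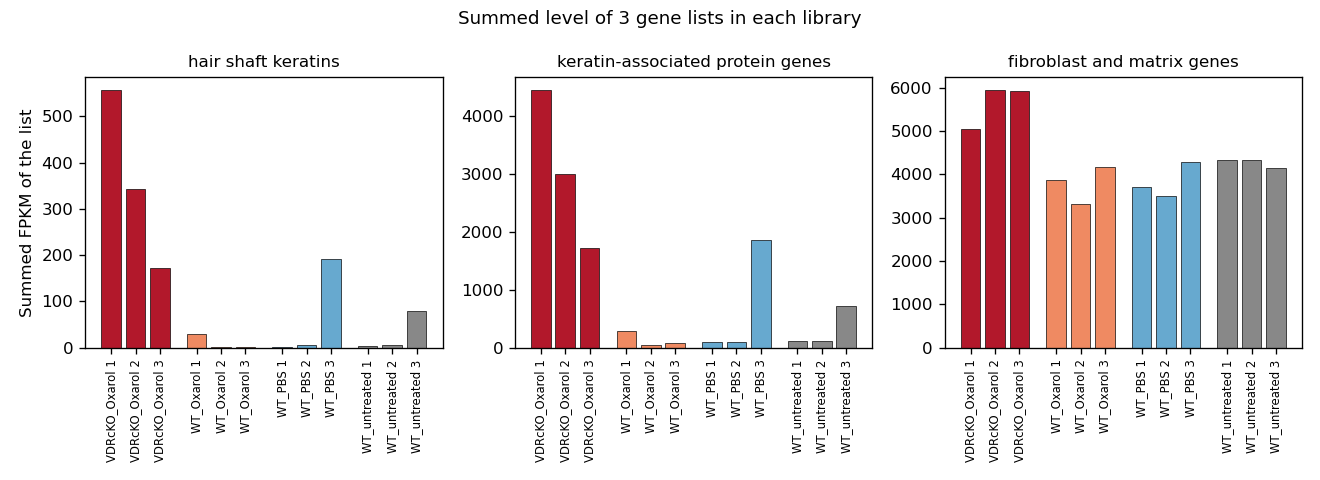
Summed FPKM of the hair shaft keratins, the keratin-associated protein genes, and the fibroblast and matrix genes in each library, as bars from 0, in the group order VDRcKO_Oxarol, WT_Oxarol, WT_PBS and WT_untreated. Hair sums of WT_PBS replicate 3 (192 and 1859 FPKM) fall within the VDRcKO_Oxarol ranges, whereas all 3 VDRcKO_Oxarol sums of fibroblast genes exceed those of every wild type library.

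Genes of the dermis, cartilage and macrophages were higher in VDRcKO_Oxarol. Of 29 fibroblast and matrix genes tested, 16 rose and none fell (10.8% and 5.49% of all genes), with a median of 0.67. The 16 became 3 without WT_PBS replicate 1, 4 without WT_PBS replicate 2, 4 without VDRcKO_Oxarol replicate 2 and 9 without VDRcKO_Oxarol replicate 3, while the median stayed between 0.61 and 0.76 with each library left out. The summed level of the list was 5052, 5949 and 5934 FPKM in VDRcKO_Oxarol and 3721, 3508 and 4298 FPKM in WT_PBS. Elastin (Eln) had 57.5, 84.8 and 78.3 FPKM in VDRcKO_Oxarol and 27.3, 24.9 and 29.3 FPKM in WT_PBS (1.39 ± 0.19, adjusted p = 0.00289). Fibronectin (Fn1) had 51.1, 53.8 and 48.8 FPKM in VDRcKO_Oxarol and 22.3, 21.7 and 28.5 FPKM in WT_PBS (1.06 ± 0.17). The collagen I gene Col1a1 had 603, 1100.1 and 924 FPKM in VDRcKO_Oxarol and 228, 206 and 261 FPKM in WT_PBS (1.88 ± 0.42, adjusted p = 0.0173); its call was lost with the series term (adjusted p = 0.0856), where 3 of the 29 genes were called, and without WT_PBS replicate 1 or 2 or VDRcKO_Oxarol replicate 2 (adjusted p up to 0.0655). Of 19 cartilage genes, 12 rose and none fell, with a median of 0.89, and 8 rose without WT_PBS replicate 1 or 2. Col2a1, the main cartilage collagen, had 12.1, 13 and 13.4 FPKM in VDRcKO_Oxarol and 2.27, 1.18 and 2.51 FPKM in WT_PBS (2.24 ± 0.23, adjusted p = 0.00104), and Acan, the cartilage proteoglycan, had 18.1, 16.4 and 17.3 FPKM against 8.35, 4.88 and 10.1 FPKM. With the series term 6 of the 19 were called, Acan not among them (adjusted p = 0.0661). Summed over the cartilage list the groups overlapped, at 2362 to 2871 FPKM in VDRcKO_Oxarol and 1290.1 to 2900.2 FPKM in WT_PBS. WT_untreated held 2207 to 3413 FPKM. Of the 19 genes, 18 were lower in WT_PBS than in WT_untreated, with a median of -0.30 and none called by limma.

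Of 24 macrophage and monocyte genes, 16 rose and none fell (10.8% and 5.49% of all genes), with a median of 0.68. With the series term 10 rose and 1 fell, and 10 rose without WT_PBS replicate 1 or 2. Emr1, which encodes the F4/80 antigen, had 22.2, 16.5 and 16.4 FPKM in VDRcKO_Oxarol and 6.01, 5.50 and 8.48 FPKM in WT_PBS (1.34 ± 0.15, adjusted p = 0.00141), beside 8.17, 8.74 and 9.53 FPKM in WT_Oxarol. Csf1r, the receptor for macrophage colony-stimulating factor, had 36.1, 27.3 and 32 FPKM in VDRcKO_Oxarol and 14.6, 16.7 and 17.8 FPKM in WT_PBS (0.91 ± 0.17), and the mannose receptor gene Mrc1 had 21.1, 19.9 and 20.8 FPKM against 10.3, 11.7 and 11.9 FPKM (0.81 ± 0.084, adjusted p = 0.00104). For each of these 3 genes the VDRcKO_Oxarol libraries lay above every WT_Oxarol and WT_PBS library. Mmp12, the macrophage elastase, had 9.11, 7.40 and 4.22 FPKM in VDRcKO_Oxarol and 0.714, 1.0 and 1.33 FPKM in WT_PBS (1.93 ± 0.31). Complement C1qa and the tetraspan gene Ms4a7 rose by 0.85 and 0.86. Langerhans and dendritic cell genes rose at 5 of 17, among them the class II gene H2-Eb1. H2-Eb1 was not called with the series term, or without WT_PBS replicate 1 or 2 or VDRcKO_Oxarol replicate 1 or 2 (adjusted p up to 0.0914). Cd207, the langerin gene, used here as a Langerhans cell marker, had 12.7, 12.3 and 8.89 FPKM in VDRcKO_Oxarol and 9.36, 9.77 and 8.28 FPKM in WT_PBS. Cd207 did not pass (adjusted p = 0.266). T cell and innate lymphoid genes gave 3 higher and 1 lower of 16, mast cell genes 2 and 1 of 14, and neutrophil genes 2 and 0 of 8. These counts stand beside 10.8% higher and 5.49% lower among all genes. None of the 2 B cell and 5 red blood cell genes tested was called by limma, and 1 of the 5 had an unadjusted p below 0.05. These lists share members, such as Gata3, Itgam and Lyz2.

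**Figure D5:**
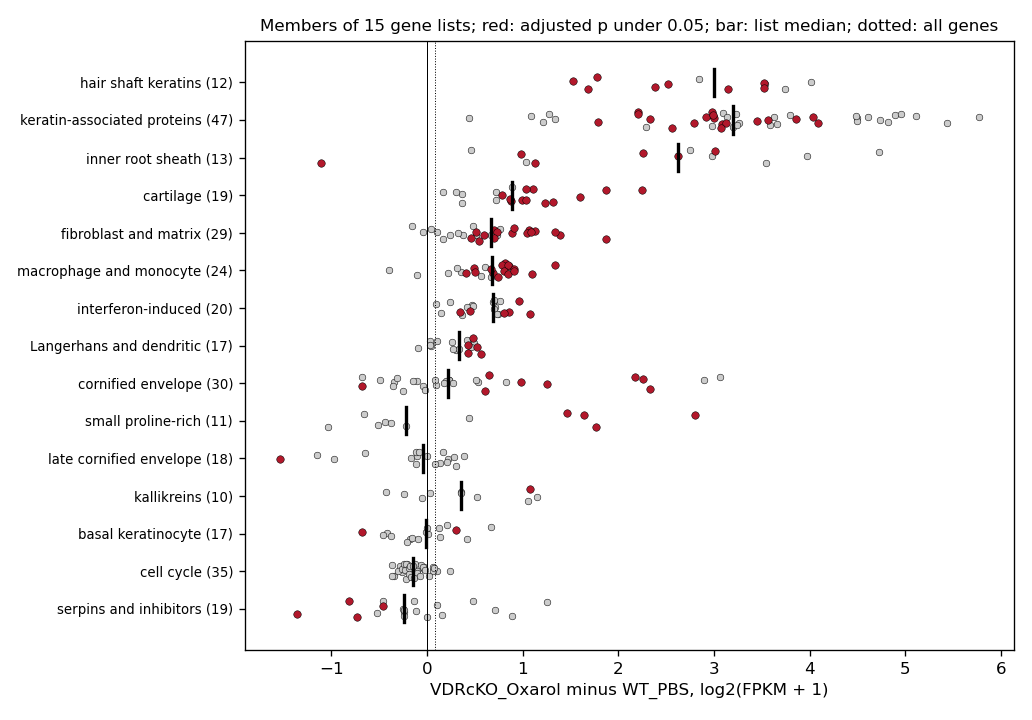
VDRcKO_Oxarol minus WT_PBS on the log2(FPKM + 1) scale for each tested member of 15 gene lists, with the number tested in brackets; red points passed an adjusted p of 0.05, black bars are list medians and the dotted line is the median of all 14059 genes. The hair lists lie furthest right, at medians of 2.62 to 3.20, cartilage, fibroblast, macrophage and interferon lists lie at 0.67 to 0.89, and the cell cycle list lies below 0 with no call.

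All 20 interferon-induced genes tested had positive differences (60.3% of all genes did), with a median of 0.69. Of the 20, 6 were called higher, as were 10.8% of all genes. Summed over the list, VDRcKO_Oxarol held 545, 362 and 322 FPKM and WT_PBS 260, 230 and 247 FPKM. WT_untreated held 323, 254 and 551 FPKM, and its replicate 3, of the same code series as VDRcKO_Oxarol, lay above every VDRcKO_Oxarol library. Without VDRcKO_Oxarol replicate 1 the median was 0.43 with 2 calls, and without WT_PBS replicate 1 or 2, 1 and 2 were called; with the series term 1 was called. Usp18, which removes the ubiquitin-like protein Isg15, had 7.35, 6.64 and 6.23 FPKM in VDRcKO_Oxarol and 3.30, 3.18 and 3.27 FPKM in WT_PBS (0.86 ± 0.19, adjusted p = 0.0166; 0.0698 with the series term and up to 0.0597 without WT_PBS replicate 1 or 2 or VDRcKO_Oxarol replicate 1). Oasl1, an oligoadenylate synthetase-like gene, had 2.17, 1.57 and 1.06 FPKM in VDRcKO_Oxarol and 0.453, 0.297 and 0.209 FPKM in WT_PBS (0.96 ± 0.17), and was the member called with the series term (adjusted p = 0.0329). Of 13 antimicrobial protein genes, 4 rose and none fell. Defb6, an epithelial beta-defensin, had 705, 534 and 519.6 FPKM in VDRcKO_Oxarol and 105, 137 and 149 FPKM in WT_PBS (2.17 ± 0.30, adjusted p = 0.00284), beside 151, 82.7 and 74.8 FPKM in WT_Oxarol. Defb1 rose by 0.69, and the lysozyme genes Lyz1 and Lyz2, which macrophages also express, by 0.95 and 1.09. Of 21 chemokine genes, 5 rose and none fell. Cxcl12, a stromal chemokine, had 89.8, 84.2 and 90.2 FPKM in VDRcKO_Oxarol and 42.7, 47 and 49.8 FPKM in WT_PBS (0.91 ± 0.088, adjusted p = 0.000788), and the myeloid chemokine Ccl9 rose by 0.83. Ccl8, in the list of type 2 response genes, had 738, 625 and 584 FPKM in VDRcKO_Oxarol and 246, 277 and 319 FPKM in WT_PBS (1.21 ± 0.21). B2m, the invariant chain of class I molecules, had 1221, 1034 and 1060.4 FPKM in VDRcKO_Oxarol and 548, 473 and 539 FPKM in WT_PBS (1.08 ± 0.16, adjusted p = 0.00377), the largest called difference among 16 housekeeping genes, of which 4 rose and 1 fell.

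Smaller numbers of genes moved in the remaining lists, and many of their shares lay near those of all genes, of which 10.8% were higher and 5.49% lower. The immediate early gene Egr2 had 37.7, 35.4 and 34.7 FPKM in VDRcKO_Oxarol and 13, 12.8 and 16.5 FPKM in WT_PBS (1.30 ± 0.16, adjusted p = 0.00199), and 5 of the 24 genes of its list rose and 1 fell. Of 17 clock genes, Per3, Gm129, Arntl and Hlf fell and Nfil3 rose; Per3 had 22.4, 25 and 28.2 FPKM in VDRcKO_Oxarol and 39.9, 34.4 and 37.6 FPKM in WT_PBS (-0.55 ± 0.094), and sampling times of day are not given in the labels. The call of Nfil3 was lost with the series term and without WT_PBS replicate 3, and those of Wnt3a, Wnt4, Wnt5b, Fzd7, Sfrp2 and Sfrp5 with the series term. Without WT_PBS replicate 1, and for some without other single libraries, the calls of Arntl, Hlf, Nfil3, Wnt3a, Wnt4, Wnt5b, Fzd7, Sfrp2, Sfrp5 and Sostdc1 were lost, at adjusted p of up to 0.058 for Arntl and 0.129 for Sfrp2; those of Per3, Gm129, Wnt3, Wnt10b and Sfrp1 were not. Wnt pathway genes gave 6 higher and 4 lower of 32: the ligands Wnt3, Wnt3a, Wnt4 and Wnt10b fell, and the antagonists Sfrp1, Sfrp2, Sfrp5 and Sostdc1, the receptor Fzd7 and the ligand Wnt5b rose. Wnt3 had 5.66, 6.40 and 5.54 FPKM in VDRcKO_Oxarol and 12.9, 13.4 and 11.6 FPKM in WT_PBS (-0.99 ± 0.19). Hair follicle regulators gave 6 higher and 3 lower of 25, led by Gata3, and Sox9, a regulator of follicle stem cells and cartilage, had 95.7, 86.3 and 86.9 FPKM in VDRcKO_Oxarol and 44, 37.1 and 54.4 FPKM in WT_PBS (0.99 ± 0.19). Barrier lipid genes gave 2 higher and 3 lower of 30; the fatty acid elongase Elovl6 fell by 0.83 and the lipoxygenase Alox12e rose by 0.90. Retinoid genes gave 2 and 1 of 17, and xenobiotic and oxidative stress genes 5 and 1 of 18. Epidermal growth factor receptor genes gave 3 and 2 of 17, hedgehog and Bmp genes 3 and 0 of 12, alarmins and epithelial cytokines 3 and 1 of 15, type 2 response genes 3 and 1 of 12, and stefins and cystatins 3 and 0 of 9. Metalloproteases gave 3 and 0 of 18, nerve genes 4 and 0 of 13, smooth muscle genes 3 and 0 of 10, striated muscle genes 3 and 0 of 25, sebaceous genes 3 and 1 of 20, melanocyte genes 1 and 2 of 11, and respiratory chain genes 2 and 3 of 29. At most 2 genes rose and at most 2 fell among each of the lists of 16 receptor targets known from other tissues, 15 zinc transporters and metallothioneins, 15 heat shock genes, 12 glucocorticoid-induced genes, 27 genes of sterol and fatty acid synthesis, 17 basal keratinocyte genes, 20 endothelial genes, 17 adipocyte genes, 10 skin markers and 5 genes that differ between mouse strains. The single sex-linked gene tested, Xist, was not called.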

How the data were processed

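Total RNA of mouse ear skin was sequenced from NEBNext Ultra libraries, per the labels' protocols. The authors deposited 1 value per gene symbol and library, which are taken as FPKM: the submitters' processing notes name TopHat2 2.0.8, Bowtie2 2.1.0, Cufflinks 2.1.1 and the mouse build mm9, and the file headers print no unit. Strandedness, fragment filters and the treatment of multi-mapping reads are not stated there, so antisense or overlapping genes, and near-identical copies (Sprr2, stefin, Krtap, kallikrein and Krt81 or Krt86 genes), may share reads. No read counts were analysed here; depth (about 4550000 to 113900000 fragments) was read from the value of 1 fragment in low genes and was used in no test. A listed 0 can be a failed estimate.

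The 14059 genes that reached 1 FPKM in 3 or more libraries were tested with limma 3.58.1 in R 4.3.3, on log2(FPKM + 1) with an intensity trend, in 1 fit of the 4 group means over 12 libraries (8 residual degrees of freedom), with Benjamini-Hochberg adjustment over all of them and a threshold of 0.05. Differences on this scale understate the change of low genes. Whether each library stands for its own animal is not stated in the labels, and the spread behind every p-value may therefore be technical. The script was tested on simulated data. No deposited column was left without a sample.

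Genes were named by rule: Vdr and Cyp24a1, the 10 largest non-overlapping increases and the 10 largest decreases past the threshold, 12 genes called the same way in VDRcKO_Oxarol against WT_PBS and WT_Oxarol against WT_untreated, 10 genes near WT_PBS that differed from WT_Oxarol, and up to 4 members of each of 54 gene lists by adjusted p. Other genes named were chosen after their values were seen. The comparison, its members and the lists were chosen with earlier results of these data known, so list counts are descriptions and no list was tested as a set. Alternatives changed the pseudocount, filter, scaling, groups fitted, variance prior, library weights, zeros, short RNA genes, library code series and each library in turn. Promoter windows are from RefSeq (GRCm38.p6), another build than the authors used, and served only for sequence. DR3 elements were searched on both strands. Figures were drawn with matplotlib 3.10.9.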

Additional observations from a re-analysis of the deposited data

How the results depend on the processing

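Genes called in VDRcKO_Oxarol against WT_PBS numbered 3737 when only those 2 groups were fitted (2589 higher), 611 with the library code series as a term (386 higher, 225 lower), 86 in the second series alone (21 higher, 65 lower), which has 1 library per wild type group whose spread is taken from VDRcKO_Oxarol, and 5427 with array weights (3525 higher, 1902 lower). The higher calls were 961 with a filter of 5 FPKM and 968 after quantile normalization; the lower calls were 1620 after quantile normalization and 1373 after median-of-ratios scaling. VDRcKO_Oxarol against WT_Oxarol had 1848 calls, 283 with the series term, 53 in the second series alone and 3648 with array weights. WT_Oxarol against WT_untreated had 184, 90 with no filter, 12 with only those groups fitted, 73 in the second series alone and 561 with array weights. The 45 genes called the same way became 21, 4, 18 and 181 under those 4 settings. WT_Oxarol against WT_PBS had 43 calls, 0 with only those groups fitted, 90 in the second series alone and 360 with array weights. WT_PBS against WT_untreated had 1 call, 5 with a pseudocount of 0.1, 2 with no filter, 6 with only those groups fitted or with array weights, 85 in the second series alone, 3 with the robust prior and 0 with short RNA genes left out. The 223 calls in the gene lists became 91 with the series term, 11 in the second series alone and 420 with array weights. Vdr lost its call in the second series alone, at 1.14 against WT_PBS (adjusted p = 0.151) and 1.51 against WT_Oxarol (adjusted p = 0.107). Other settings kept these counts within 1.5 times. The cause of these shifts was not tested.

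Leaving out 1 library at a time gave 543 to 3875 genes for VDRcKO_Oxarol against WT_PBS (360 to 2675 higher, 183 to 1200 lower), 322 to 3433 for VDRcKO_Oxarol against WT_Oxarol, 34 to 254 for WT_Oxarol against WT_untreated, 11 to 80 called the same way, 13 to 132 for WT_Oxarol against WT_PBS, 1 to 6 for WT_PBS against WT_untreated and 74 to 314 in the lists. Of 188 values of single genes, none that was called changed sign under an alternative. The series term ended 60 calls, the second series alone 142, no filter 19, a pseudocount of 0.1 12, the robust prior 10, quantile normalization 8, fits of 2 groups 8, median-of-ratios scaling 6 and a filter of 5 FPKM 2. Leaving out WT_PBS replicate 1 ended 60. Depth limits low genes most in VDRcKO_Oxarol, whose libraries held the fewest fragments. No paired analysis was possible because the replicate numbers were given in accession order and the labels carry none.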
